A study of Mus musculus with 2 samples.

Results

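The genes described here belong to fibroblast growth factor (FGF) signalling and its feedback: the FGF ligands and their binding protein, the FGF receptors and adaptors, the Sprouty and Spred inhibitors, the dual-specificity phosphatases (Dusp) and the Etv transcription factors. They were chosen by symbol (Fgf, Fgfr, Fgfbp, Frs2, Frs3, Spry1 to Spry4, Spred, Dusp and Etv1 to Etv6) among array probes whose RefSeq accession gives 1 mouse gene. The symbol rule uses no measured value, but it was chosen with earlier results of these data known. Of 69 protein-coding mouse genes that match these names, 47 had a probe, 1 each, among 10137 named genes tested. The other 22, among them Fgfr1, Fgfr2, Frs2, Spry1, Spred1, Spred2, Dusp4, Dusp5, Etv1 and Etv3, were not analysed here. Fgfr1op2 matched by its name alone, being called after a fusion partner of FGFR1 and not being a receptor itself.

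RNA came from EB5 mouse embryonic stem (ES) cells, grown on gelatin without feeders, that had been transfected with Klf4 siRNA and the plasmid pCAGEGFP-IP, kept for 24 h and then selected with puromycin for 24 h. The 2 samples (siKlf4 ES cells, n = 2) were labelled with Cy3 and each was hybridised on a 2-colour oligonucleotide array against Cy5-labelled Universal Mouse Reference RNA, an equal pool from 11 cultured mouse lines of embryonic, fibroblast, kidney, liver, macrophage, B- and T-lymphocyte, mammary, myoblast, skin and testis origin. The series as given here holds no ES cells that lacked the siRNA, so every ratio compares siKlf4 ES cells with that pool and none measures what the siRNA did. EB5 is 1 cell line, and nothing says whether both samples were separate cultures. The p-values then rest only on the spread between these samples, which may be technical. For each gene its own spread was combined with that over all probes, which weighed more.

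FGFs bind receptor tyrosine kinases on the cell surface together with heparan sulfate, and the receptors signal through Frs adaptors, Grb2, Ras, Raf and Mek to the MAP kinase Erk. Active Erk switches on its own brakes, the Sprouty and Spred proteins and the Dusp phosphatases, and the Etv4 and Etv5 transcription factors, which are therefore often read as targets of the pathway. In mouse ES cells Fgf4 is the best-known activating ligand, and Erk activity prepares the cells to leave the naive state and to differentiate.

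Signals are given in scanner units above the local background of the spot, and ratios as log2 of ES cells over reference after background correction and dye normalisation. Control spots that match no mouse transcript (negative controls) had a median of 129 and 138 units for the ES dye but 28.5 and 32.3 for the reference dye, so equal corrected levels in dim probes appear as a higher ES signal. A probe was taken as above background where it exceeded the 95th percentile of these spots, at 155 and 178 units for ES cells and 40.9 and 58.4 for the reference, on arrays 1 and 2. A gene was called where limma's adjusted p over all 21028 probes was under 0.05, both arrays had the same sign and the mean ratio was at least 2-fold. By this rule 5.08% of all probes were called higher and 5.19% lower. The 2-fold limit was set with earlier results of these data known, because without it negative control spots also passed.

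Markers of several cell types were read against the pool. Since the pool holds fibroblast and macrophage lines among others, a value below it does not show that such cells were absent from the cultures. Of 11 measured ES cell markers 10 were called higher than in the pool. Pou5f1 stood at a log2 ratio of 2.86 and Sox2 at 5.69 (1.76 and 4.46 without background correction). Tdgf1 stood at 5.98 by its brighter probe and at 2.355 by the other. The ES cell marker not called, Esrrb, was above background in neither channel. Of 8 fibroblast markers 7 were called lower (median -3.38) and of 6 macrophage markers 5 (-2.84). Primitive endoderm markers were called lower in 3 of 8 cases and higher in 1 (Lama1, 1.36). Trophectoderm markers were called lower in 3 of 7 cases and higher in 1 (Tfap2c, 3.26). The macrophage marker not called, Lyz2, stood at -0.47 by its brighter probe and at -2.81 by the other. Klf4 itself stood at 0.43 and 0.59 on the 2 arrays (mean 0.51, SE 0.050, adjusted p = 0.000463), which without control cells is no check of the knockdown.

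Across the 47 genes most ratios were small. Called higher in the ES cells were 4 genes, the transcription factor genes Etv5 and Etv2, the FGF-binding protein gene Fgfbp1 and the phosphatase gene Dusp9, or 8.51% of the members against 5.08% of all probes. Called lower was 1, the ligand gene Fgf7, or 2.13% against 5.19%. Over 10137 named genes with 1 probe each, which are brighter than the unnamed ones, the shares were 6.73% higher and 7.47% lower, so the counts of members lie near the background on both sides. The median log2 ratio of the members was -0.02, against -0.01 over all probes, and the median absolute ratio was 0.18 in both. By the adjusted p alone 13 members were higher and 16 lower, against 31.6% and 31.4% of all probes and 34.8% and 34.2% of named genes. Past 0.52 in either direction, the largest ratio of any negative control, 5 were higher and 7 lower, against 12.1% and 10.8% of all probes and 15.9% and 14.2% of named genes. The ratios of 31 of the 47, or 66.0%, lay between the negative controls' lowest and highest (-0.25 to 0.52), where 68.0% of all probes and 60.3% of named genes lay. In both channels and on both arrays 38 of the 47 were above background, and none was saturated.

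**Figure D1:**
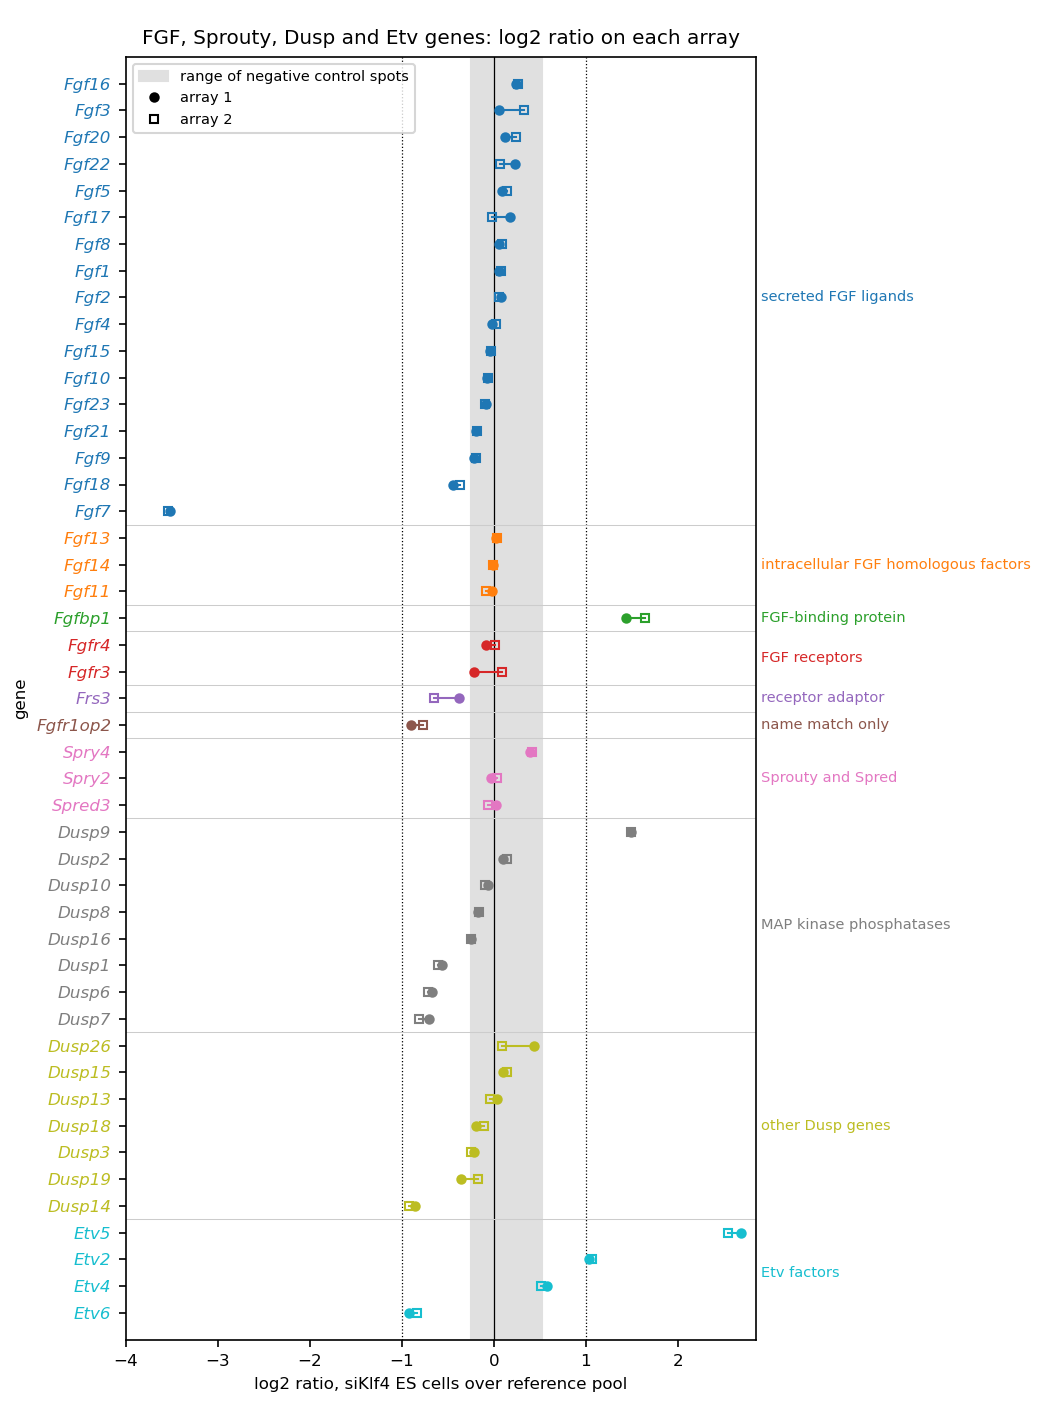
Log2 ratio of siKlf4 ES cells over the reference pool for each of the 47 genes, grouped by role, with filled circles for array 1 and open squares for array 2. Dotted lines mark 2-fold and the grey band spans the negative control spots (-0.25 to 0.52); Etv5 (2.69 and 2.54) lies farthest right, Fgf7 (-3.53 and -3.54) farthest left, and most ligands lie in the band.

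The values rest on 1 designed probe of 60 bases per gene. The first 30 bases of the probes of the called genes, and of the pathway genes read most often beside them, are shown as part of what the arrays were designed to bind, and their place in the transcript was not determined; the letters come from the deposited scanner files and run 5′ to 3′, with no part marked.
Etv5: ggactctttcataagcatatttatagcttt
Dusp9: tgtggcagcaggaccatcttgtctttgttt
Fgfbp1: caatgcatgtcataatatgcaagcaaggaa
Etv2: gagcgcaagaggaagccgggaatgaattat
Fgf7: acgatgagcagtgtttgaaagctttccagt
Fgf4: tgtgcctttctttaccgacgagtgtaaatt
Dusp6: ctgccttacctttgtaaatatttggcttac
Etv4: tccccttgacatggtggggttgctcagtgt
Spry2: ccccccttttaacacatatgcaaccaacta
No pair of the 47 probes shared a run of more than 12 bases, the length shared by the Fgf16 and Fgf21 probes, so none of these values repeats another's sequence at greater length.

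Among the secreted ligands, Fgf7 was the only gene of 17 to be called, and it was lower in the ES cells. Fgf7, the keratinocyte growth factor made by mesenchymal cells for neighbouring epithelia, gave 156 and 170 units in the ES cells and 1463 and 1434 in the reference. Both ES signals thus lay at the background limit, above it on array 1 only, whereas both reference signals were far above theirs. The log2 ratios were -3.53 and -3.54 (mean -3.53, SE 0.036, 95% interval -3.63 to -3.44, adjusted p = 4.71e-07), 11.6-fold below the pool. With the ES signal of array 2 raised to the limit the mean was -3.49, or 11.25-fold, and without background correction it was -1.76. Fibroblast markers moved the same way (7 of 8 called lower, from -4.78 to -0.56, with Lox not above background in the ES cells on either array, and summed signals of 6103 and 7425 units in the ES cells and 86766 and 83941 in the reference), and their part in the Fgf7 value was not tested.

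Fgf4, which Oct3/4 and Sox2 activate together through an enhancer at the gene's end, did not differ measurably from the pool on these arrays. Its probe read 494 and 646 units in the ES cells and 479 and 560 in the reference, above background in all cases. The array values of the log2 ratio were -0.02 and 0.03, on both sides of 0, and the mean was 0.00 (SE 0.038, 95% interval -0.09 to 0.10, adjusted p = 0.945). That interval holds no change of 2-fold in either direction, but with median centring in place of loess the mean was -0.17. Pou5f1 and Sox2, the genes of its activators, stood 7.24-fold and 51.7-fold above the pool on the same arrays.

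Fgf5, a ligand gene that rises as ES cells move toward the epiblast of the implanted embryo, was not above background in the ES cells on either array (148 and 160 units), and in the reference on array 1 only (47.1 and 48.4). It is therefore given no fold, and its ratio of 0.11 (adjusted p = 0.0468) lay inside the negative controls' range. The remaining ligands were Fgf1, Fgf2, Fgf3, Fgf8, Fgf9, Fgf10, Fgf16, Fgf17, Fgf18, Fgf20, Fgf22 and the hormone-like Fgf15, Fgf21 and Fgf23. Of these, Fgf18 lay lowest at -0.40 (array values -0.44 and -0.37, adjusted p = 0.000449) and was the only one outside the negative control range. Fgf9 (-0.21) and Fgf21 (-0.19) passed the adjusted p below 2-fold on the low side, and Fgf16 (0.25), Fgf20 (0.18) and Fgf22 (0.15) on the high side. Fgf16 was above background in neither channel. In all, 15 of the 17 ligands lay inside that range.

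The intracellular FGF homologous factors, which are not secreted and act on ion channels, were near the pool. Fgf11 stood at -0.05, Fgf13 at 0.02 and Fgf14 at -0.01, 0 of the 3 passed limma's adjusted p and 0 an unadjusted p under 0.05, and the array values of Fgf14 were -0.01 and -0.01. Their probes were above background in both channels, with 288 and 403 units for Fgf14 in the ES cells and 216 and 309 in the reference.

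Fgfbp1, a secreted protein that frees FGFs from the matrix and carries them to their receptors, was higher in the ES cells. Its signals were 604 and 767 units in the ES cells and 186 and 187 in the reference, above background in all cases. The log2 ratios were 1.43 and 1.64 (mean 1.54, SE 0.059, 95% interval 1.39 to 1.69, adjusted p = 1.13e-05), or 2.91-fold. Without background correction the mean was 0.77 and the gene was not called.

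Of the receptors only Fgfr3 and Fgfr4 were measured, and neither was called or passed limma's adjusted p or an unadjusted p under 0.05. Fgfr3 was above background in neither channel on either array, at 86.9 and 117 units in the ES cells and 18.3 and 23.1 in the reference, so no ratio can be read from it. Fgfr4 read 160 and 192 units in the ES cells and 70.3 and 83.2 in the reference, just above the limits, and its log2 ratio was -0.04 (95% interval -0.14 to 0.07, adjusted p = 0.498). The sign of the Fgfr4 ratio turned with median centring (0.16). Frs3, an adaptor that docks Grb2 and Shp2 to active FGF receptors, was lower at -0.38 and -0.65 (mean -0.51, SE 0.068, adjusted p = 0.00151), short of 2-fold and with arrays that differed by more than in most members. Fgfr1op2 stood at -0.84 (adjusted p = 3.95e-05).

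The 3 Sprouty and Spred genes that were measured, inhibitors of the Ras step, had ratios inside the negative controls' range. Spry1, Spry3, Spred1 and Spred2 were not analysed here. Spry2, a Sprouty protein that blocks receptor signalling to Ras, gave 456 and 678 units in the ES cells and 435 and 592 in the reference. Both channels thus read higher on array 2, and the log2 ratios were -0.03 and 0.03 (mean 0.00, 95% interval -0.10 to 0.10, adjusted p = 0.98). Spry4, another Sprouty gene, gave 314 and 312 units against 170 and 142, and was higher at 0.40 and 0.42 (mean 0.41, SE 0.037, adjusted p = 0.000303), 1.33-fold and inside the negative controls' range. Spred3, a Sprouty-related inhibitor of Raf activation, stood at -0.02 (95% interval -0.12 to 0.09, adjusted p = 0.736).

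The MAP kinase phosphatases split by member, and Dusp9 stood apart from its closest relatives. Dusp9, Dusp6 and Dusp7 encode the cytoplasmic phosphatases that act mainly on Erk. Dusp9 gave 6427 and 7812 units in the ES cells and 2478 and 2513 in the reference, the ES channel being higher on both arrays. Its log2 ratio was 1.49 on each array (mean 1.49, SE 0.036, 95% interval 1.40 to 1.58, adjusted p = 2.71e-06), 2.81-fold, and it was 1.41 without background correction.

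Dusp6, the phosphatase most often used as a marker of FGF signalling, gave 891 and 939 units in the ES cells and 1571 and 1474 in the reference. The reference signal was higher on both arrays, with log2 ratios of -0.67 and -0.72 (mean -0.70, SE 0.038, adjusted p = 4.11e-05), 1.62-fold below the pool. Dusp7 lay close to it at -0.70 and -0.82 (mean -0.76, adjusted p = 5.39e-05), with 691 and 719 units in the ES cells and 1219 and 1186 in the reference. Neither reached 2-fold, and with median centring Dusp6 stood at -0.93 and Dusp7 at -0.99, also short of it. Dusp9 was therefore above the pool and Dusp6 and Dusp7 below it under each of the 4 other scalings or backgrounds tried.

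Of the remaining phosphatases for MAP kinases, the nuclear enzyme Dusp1, itself an immediate-early gene, stood at -0.56 and -0.61 (mean -0.59, adjusted p = 7.89e-05). Dusp16 (-0.25) and Dusp8 (-0.17), which act mainly on Jnk and p38, were lower by less, Dusp10 (-0.08) did not pass, and Dusp2 was at 0.12 (adjusted p = 0.0345). In this group of 8 genes 1 was called, 5 passed the adjusted p on the low side and 2 on the high side; over all probes 31.4% passed on the low and 31.6% on the high side, and 115 of 161 negative control spots passed as well.

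The 7 other Dusp genes encode smaller phosphatases without the MAP kinase docking domain, and 0 were called. By limma's adjusted p 2 passed on the high side (28.6%) and 4 on the low side (57.1%), the same counts as by an unadjusted p under 0.05. Over all probes 31.6% and 31.4% passed the adjusted p, as did 115 of 161 negative control spots. Dusp14 came nearest to 2-fold, at -0.86 and -0.92 (mean -0.89, SE 0.039, adjusted p = 1.82e-05), with 240 and 243 units in the ES cells and 336 and 312 in the reference. Dusp3, which can act on Erk and Jnk, was not above background in the ES cells and its ratio (-0.23) gives no bound. Dusp26 gave 0.44 on array 1 and 0.09 on array 2, the largest difference between arrays among the 47 genes (-0.35, with a median absolute difference of 0.05 over the members and 0.06 over all probes). Dusp13 (0.00), Dusp15 (0.12), Dusp18 (-0.15) and Dusp19 (-0.27) lay near the pool.

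**Figure D2:**
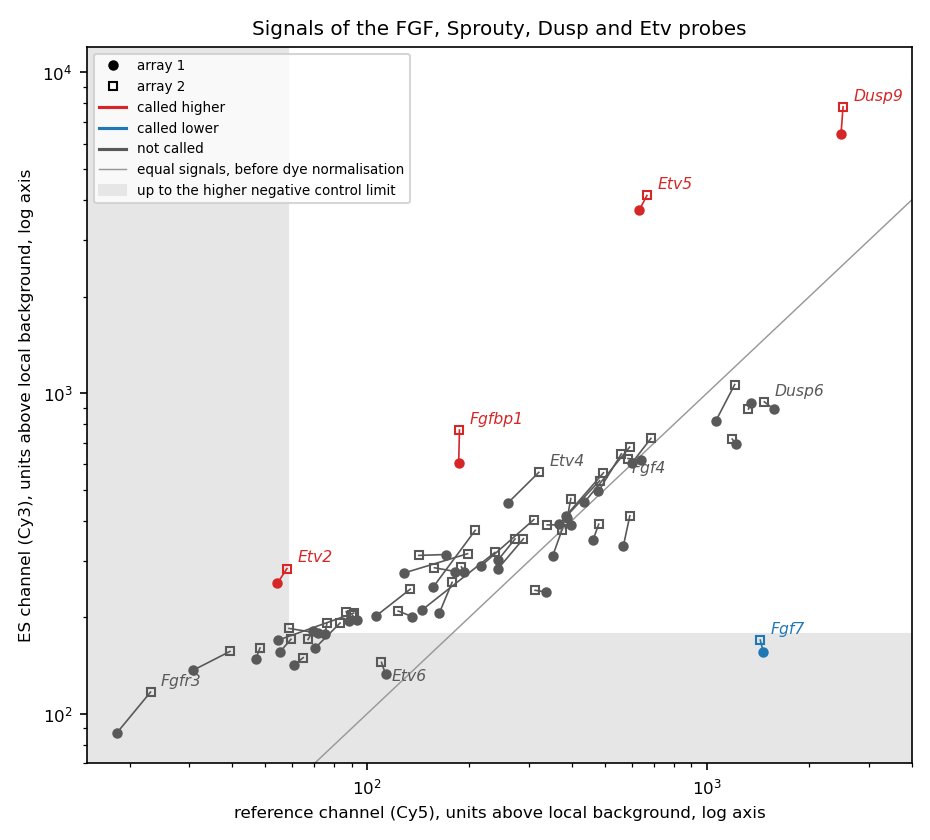
Signal of each of the 47 probes in the ES channel (vertical) against the reference channel (horizontal), in units above local background on log axes, with array 1 (filled) and array 2 (open) joined by a line. Shaded bands reach to the higher of both negative control limits (58.4 and 178 units); the called genes Etv5, Dusp9, Fgfbp1, Etv2 and Fgf7 lie off the diagonal cloud, and Fgf7 and Etv2 touch a band.

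The Etv genes held the highest ratio of all 47. Etv5, an Ets factor of the Pea3 group and a common readout of FGF signalling, gave 3720 and 4132 units in the ES cells and 632 and 666 in the reference. The ES signal was several times the reference signal on each array, with log2 ratios of 2.69 and 2.54 (mean 2.62, SE 0.049, 95% interval 2.49 to 2.74, adjusted p = 1.38e-06), 6.13-fold, and 93rd from the highest of 21028 probes. Its ratio was 2.14 without background correction and 2.41 with median centring.

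Etv4, the other measured member of the Pea3 group, was higher by much less. It gave 454 and 566 units in the ES cells and 259 and 320 in the reference, and log2 ratios of 0.58 and 0.52 (mean 0.55, SE 0.039, adjusted p = 0.000115), 1.46-fold and just beyond the negative control range. Etv2, an Ets factor best known for specifying blood and vessel progenitors, was called higher at 1.03 and 1.07 (mean 1.05, SE 0.037, adjusted p = 8.56e-06), or 2.07-fold, the called value nearest to the 2-fold limit. Its reference signals of 54.4 and 58.1 units were above background on array 1 only, its ES signals were 255 and 284, and without background correction its ratio was 0.29 and not called. Etv6, a repressor of the same family needed for adult blood stem cells, was not above background in the ES cells (133 and 145 units) whereas the reference (113 and 110 units) was higher by at least 1.44-fold with background correction; without it the log2 ratio was -0.22, below that bound in size.

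The sequences upstream of the called genes are shown because the study's title concerns activation of a core promoter by Klf4 with Oct3/4 and Sox2. RefSeq promoters (GRCm38.p6) were at hand for 4 of the 5 called genes, with a pair of starts for Etv5, and the 250 bases before each start are printed 5′ to 3′ on the gene's strand. Capitals mark each CACCC, the box bound by Klf factors, and each CCAAT, the box bound by NF-Y, on either strand (GGGTG and ATTGG on the other); CCAAT was added after the sequences had been read.
Etv5 first start, chr16:22439571-22439820, minus strand: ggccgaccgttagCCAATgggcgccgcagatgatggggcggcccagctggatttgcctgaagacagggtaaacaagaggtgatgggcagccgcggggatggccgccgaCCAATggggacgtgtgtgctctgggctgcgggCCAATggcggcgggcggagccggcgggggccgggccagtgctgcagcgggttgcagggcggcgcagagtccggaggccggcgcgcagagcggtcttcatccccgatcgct
Etv5 second start, chr16:22438369-22438618, minus strand: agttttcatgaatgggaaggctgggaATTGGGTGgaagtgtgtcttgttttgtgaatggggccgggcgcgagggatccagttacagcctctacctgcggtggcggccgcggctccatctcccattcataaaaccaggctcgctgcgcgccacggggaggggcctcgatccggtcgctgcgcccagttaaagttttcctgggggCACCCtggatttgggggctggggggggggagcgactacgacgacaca
Fgfbp1, chr5:43981800-43982049, minus strand: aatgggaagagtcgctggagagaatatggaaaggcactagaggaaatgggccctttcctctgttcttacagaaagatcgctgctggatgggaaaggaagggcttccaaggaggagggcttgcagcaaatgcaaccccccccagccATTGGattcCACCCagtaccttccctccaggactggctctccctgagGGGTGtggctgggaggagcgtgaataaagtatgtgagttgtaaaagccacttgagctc
Etv2, chr7:30635853-30636102, minus strand: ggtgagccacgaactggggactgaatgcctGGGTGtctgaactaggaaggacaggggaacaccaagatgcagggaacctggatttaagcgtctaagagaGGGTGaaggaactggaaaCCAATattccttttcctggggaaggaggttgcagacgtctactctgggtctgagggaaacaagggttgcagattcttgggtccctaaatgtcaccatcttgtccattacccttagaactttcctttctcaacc
Fgf7, chr2:126034408-126034657, plus strand: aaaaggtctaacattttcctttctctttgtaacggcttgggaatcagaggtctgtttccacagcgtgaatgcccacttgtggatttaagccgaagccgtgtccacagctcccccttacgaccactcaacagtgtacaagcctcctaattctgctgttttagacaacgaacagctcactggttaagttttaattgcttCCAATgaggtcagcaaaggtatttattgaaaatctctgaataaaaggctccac
The first Etv5 start had 3 CCAAT boxes and 0 CACCC boxes in the window, and 3 or more CCAAT boxes stood in 2.79% of 32851 mouse promoters of the same length. The second Etv5 start had 2 CACCC boxes and 1 CCAAT box, of which 1 pair overlaps. Fgfbp1 and Etv2 each had 2 CACCC boxes and 1 CCAAT box, and Fgf7 had 0 and 1. At least 1 CACCC box stood in 52.0% of all promoters and at least 2 in 21.1%, and at least 1 CCAAT box in 33.8%. The Ets core CGGAAG was found in none of these 5 windows and in 13.6% of all. These matches are letters in a window, and the arrays hold no cells with untreated Klf4 against which to set them.

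Other genes of the pathway were taken from lists by role. Those on the path from the receptor to Erk were mostly near the pool. In the Ras, Raf, Mek and Erk core 1 of 19 measured genes was called higher and 0 lower (median 0.13): Rps6ka1, an Erk-activated kinase, gave 1335 and 1251 units in the ES cells and 329 and 324 in the reference, a mean log2 ratio of 1.90 (SE 0.070, adjusted p = 1.03e-05). Among 7 receptor-proximal adaptors Gab1, a docking protein for Shp2, was the 1 called, higher at 1.47 on both arrays (adjusted p = 2.8e-06), and the list's median was 0.14. Of 11 genes of the Jnk, p38 and Erk5 branch, on which many Dusp enzymes act, 1 was called higher (Mapk13 at 1.13, with the reference above background on array 1 only) and 0 lower.

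Few co-receptor and heparan sulfate genes were called. Of 17 measured 1 was higher and 3 lower (median -0.14), or 5.88% and 17.6%. The shares were 5.08% and 5.19% of all probes and 6.73% and 7.47% of named genes, so the higher count lies near the background. The lower count rests on 3 genes. Sulf1, an extracellular enzyme that trims sulfate from heparan sulfate, was higher at 1.61 (SE 0.045, adjusted p = 4.24e-06). The syndecan genes Sdc2 (-2.90) and Sdc4 (-1.34), whose core proteins carry heparan sulfate, and Ext2 (-1.34), a polymerase subunit of the chain, were lower. Without background correction Sulf1 (0.67), Sdc4 (-0.91), Ext2 (-0.96), Gab1 (0.79) and Mapk13 (0.32) were not called, and Sdc2 (-1.68) and Rps6ka1 (1.23) were called at smaller ratios. The single higher calls of the adaptor, Ras core and Jnk lists are 14.3%, 5.26% and 9.09% of those lists.

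Most, but not all, of the Erk-responsive and immediate-early genes stood below the pool. Of 18 measured, 12 (66.7%) were called lower and 0 higher, at a median of -1.45. Lower calls made up 5.19% of all probes and 7.47% of named genes, and the list was written with earlier results known. The 6 not called were Myc (-0.80), Junb (-0.68), Fosl2 (-0.28), Fosb (-0.16), Elk1 (0.01) and Egr3 (0.08). Elk1 was above background in neither channel. Ccnd1 was called by its brighter probe (-1.21), while its other probe stood at -0.35. With the mean of the probes of a gene 11 were called lower. Egr1 gave 253 and 298 units in the ES cells against 10060 and 10280 in the reference (mean log2 ratio -5.32). Fosl1 (-3.19), Fos (-2.93) and Jun (-2.69), which form AP-1, followed, each lower on both arrays. Without background correction 8 of the 18 were called lower, with Egr1 at -3.91, Fosl1 at -1.98, Fos at -1.77 and Jun at -1.23. Etv5 and Dusp9 were thus above the pool on arrays on which Dusp6, Dusp1 and most immediate-early genes were below it. Among 14 other Ets factors 0 were called in either direction (median 0.10), with Gabpa at 0.88, Elf1 at -0.75 and Spi1 at -0.74 the farthest from the pool. By limma's adjusted p alone, with no limit on size, 6 of these 14 were higher and 3 lower, as by an unadjusted p under 0.05, where 31.6% and 31.4% of all probes and 115 of 161 negative control spots passed the adjusted p.

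**Figure D3:**
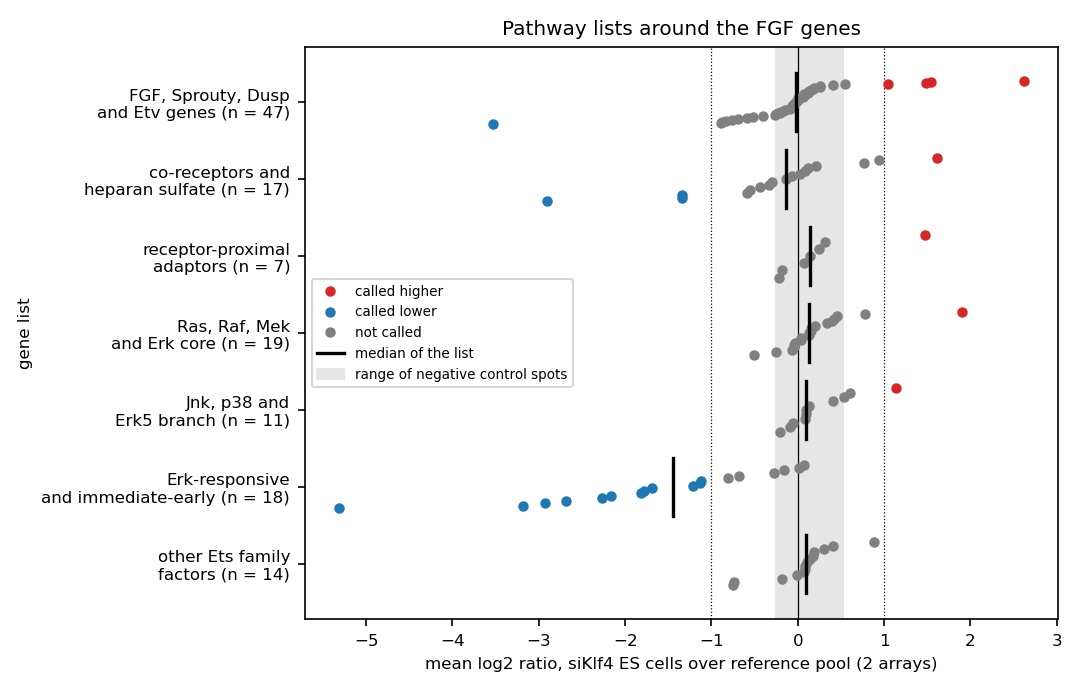
Mean log2 ratio of siKlf4 ES cells over the reference for the 47 genes and for 6 lists of other pathway genes, 1 point per gene and a bar at each median, with red for called higher and blue for called lower. The grey band spans the negative control spots; the immediate-early list (12 of 18 lower, median -1.45) is the list whose median lies outside it.

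Beside a filter on dim probes, which leaves out Fgf7 and Etv2, the absence of background correction was the processing choice that removed called genes. With the background taken from the negative controls, with the authors' processed signals, or with median centring, 4 genes were called higher and 1 lower, as before. Without any correction Etv5 (2.14), Dusp9 (1.41) and Fgf7 (-1.76) were called, and Fgfbp1 and Etv2 were not. Each ratio also carries any dye effect, since both arrays had the same dye orientation.

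**Figure D4:**
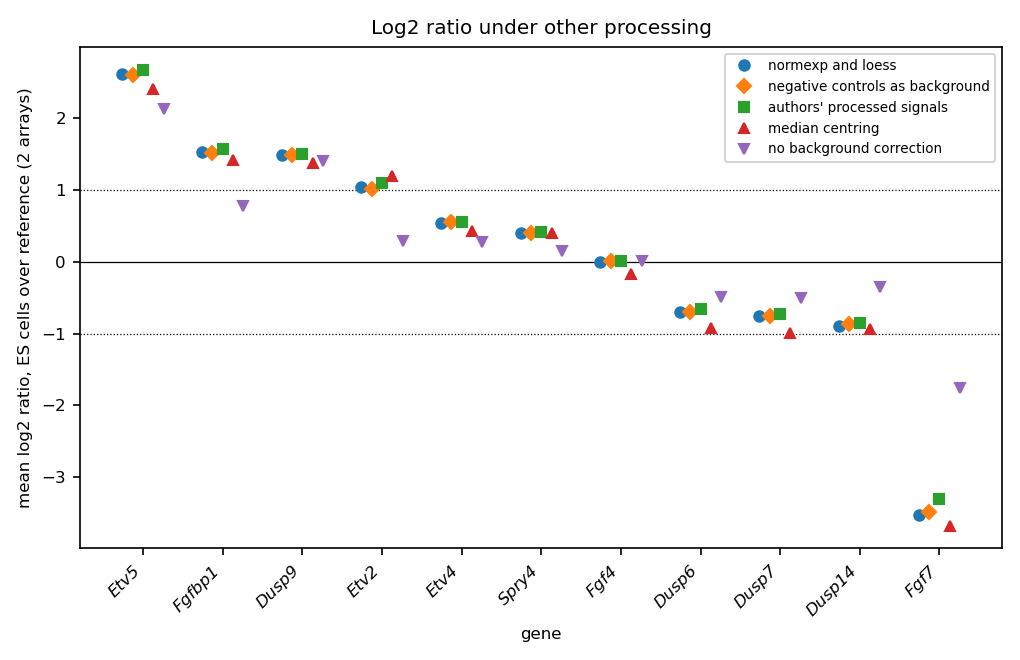
Mean log2 ratio of 11 of the genes under 5 ways of processing the same 2 arrays, with dotted lines at 2-fold. Etv5, Dusp9 and Fgf7 stay beyond the lines in each, while Fgfbp1 (0.77) and Etv2 (0.29) fall inside without background correction.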

How the data were processed

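The deposited scanner files were written by version A.7.5.1 of Agilent's Feature Extraction, per the file headers, with each spot's intensity as scanned (mean spot signal, local background median) and as processed (by the software's background and dye-normalisation steps, recorded as numbered methods). The deposited log10 ratio is red over green, reference over ES cells. The deposited series table holds log10 values on the scale of an ES signal, not ratios. Each equals the mean log10 processed reference signal of both arrays minus that array's log10 ratio, within 2e-04 for 99.62% and 99.61% of 21052 probes. Its medians are 2.918 and 2.921. No source at hand describes in words how it was made.

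Mean signals were corrected with limma 3.58.1 (R 4.3.3) by normexp with an offset of 50 on the local background median, then dye-normalised per array by loess (weight 0 for control spots). Spots marked as outliers were left out (24 probes). Mean log2 ratios were tested against 0 with lmFit and eBayes and adjusted by Benjamini-Hochberg over 21028 probes; residual degrees of freedom were 1 and those of the prior 4.24. The scanner software's own flag for signal above background was set for all 162 negative control spots in the ES channel, so the 95th percentile of those spots was used. For a bound, the dim channel was raised to that limit before correction, and the probe's loess correction was kept.

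Probes were named through RefSeq accessions (10422 of 21052 received 1 symbol), the brightest probe standing for a gene. The members, the lists and the 2-fold limit were chosen with earlier results of these data known. Every member could be named; full values were given for called genes, bounds and a fixed set of pathway genes, and of each list for up to 4 called genes. Other list genes and Dusp14 were named after their values were seen. On simulated ratios for 21028 probes, changes of 1.5 or more in log2 were called in 100% of cases. Changes of exactly 1, the limit itself, were called in 50.2%. The simulated errors were centred on 0, with no background correction, dye effect or dim probes, so these shares do not carry over to the arrays themselves. There 115 of 161 negative control spots passed the adjusted p, though 0 reached 2-fold. With 2 arrays, their number limits the precision. Alternatives changed the background, scaling, probe choice, dim-probe filter, call rule and arrays used.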

Additional observations from a re-analysis of the deposited data

How the results depend on the processing

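No paired analysis was possible because both samples belong to 1 group. Counts are given as higher and lower calls. Without background correction 510 and 467 of all probes were called, 2 members were higher, and the co-receptor list had 0 and 1, the adaptor list 0 higher and the Jnk list 0 higher; the medians of the co-receptor and immediate-early lists were -0.0732 and -0.94. With the adjusted p alone the counts were 6654 and 6612 over all probes, 13 and 16 for the members, 4 and 9 for co-receptors, 4 and 2 for adaptors, 9 and 2 for the Ras core, 5 and 1 for the Jnk list and 6 and 3 for Ets factors. With the limit set beyond every negative control spot they were 2552 and 2273 over all probes, 7 lower for the members, 3 and 5 for co-receptors, 2 higher for the Ras core, 3 higher for the Jnk list and 1 and 2 for Ets factors. Among probes above background in both channels and on both arrays 0 members were lower, because Fgf7 was left out, and the Jnk list had 0 higher; the co-receptor and immediate-early medians were -0.22 and -1.69. With median centring the medians were -0.0716 for the members, -0.32 for co-receptors, 0.0201 for the Ras core, 0.20 for the Jnk list and -1.62 for immediate-early genes. Apart from the genes left out by that filter, the cause of these changes was not tested. On a single array, as a fold without a test, 4 members were higher and 1 lower on each, and 1041 to 1117 of all probes were higher and 1079 to 1121 lower. Of 61 genes whose own ratios were followed under the alternatives, 0 that passed the adjusted p changed sign under any of them.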

Other observations

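Of the 47 members 31 had a higher signal on array 2 in both channels, 13 in the ES channel alone, 0 in the reference alone and 3 in neither. Over the members, the ES signal on array 2 was a median 1.15 times that on array 1, and the reference signal 1.05 times. Over all probes the medians were 1.14 and 1.04, so the shift was one of the whole array and not particular to the members. Dusp18 (1.51 in the ES channel and 1.64 in the reference), Spry2 (1.49 and 1.36), Fgf14 (1.40 and 1.43), Fgf23 (1.36 and 1.31) and Fgf15 (1.36 and 1.29) were examples, chosen after their values were seen, with ratios above these medians in both channels. Across the 47 members the log2 changes of both channels had a correlation of 0.77, and across all 21028 probes 0.65; each point is 1 spot read in both dyes, so the channels are not independent.

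Of 6 markers of the formative or primed epiblast, the state toward which Erk signalling moves ES cells, 2 were called higher than in the pool and 0 lower. The higher calls are 33.3% of this short list, against 5.08% of all probes and 6.73% of named genes, and no test was run on the list. Otx2, a homeobox factor of that state, stood at 1.99 and the methyltransferase gene Dnmt3b at 3.13, while Pou3f1 was at 0.49, Wnt8a at 0.17, Fgf5 at 0.11 and Sall2 at -0.78.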
